A study of Mus musculus with 12 samples.

Results

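The IL-6 family cytokines and the STAT3 branch of their signalling were followed in mouse retina after laser injury through 10 genes, picked by symbol from the 54367 genes of the deposited tables. They comprise the ligands Il6, Lif, Osm, Clcf1 and Cntf, the receptor subunits Osmr, Lifr and Il6st, the transcription factor Stat3 and its feedback inhibitor Socs3, and all 10 were found once in the table of each day. Wild-type C57BL/6 mice aged 8 to 12 weeks had the retina of the right eye burned with a 532 nm laser (75 µm spots, 0.1 s), and the left eye of each mouse was left without laser as the control. The 12 libraries form 4 groups of 3, namely lasered and control retinas collected 3 days after the laser, and lasered and control retinas collected 7 days after it. Nothing in the labels ties a replicate number to a particular animal, and the spread behind each p-value is that between the samples at hand.

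Cytokines of this family signal through receptor complexes built around the shared subunit gp130, the product of Il6st. LIF, CNTF and CLCF1 need LIFR beside gp130, whereas mouse OSM acts mainly through a pair of OSMR and gp130. Janus kinases bound to these receptors phosphorylate STAT3, which enters the nucleus and switches on target genes, among them Socs3, whose product shuts gp130 signalling down again. In the retina, LIF made by Müller glia after photoreceptor damage is known to act through gp130 and STAT3 and to protect photoreceptors.

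Levels are the deposited values per gene, corrected for exon length and library size and named TPM by the authors. Differences are laser minus control on the log2(value + 1) scale, fitted for all genes whose mean reached 1 and called when the Benjamini-Hochberg adjusted p of limma was under 0.05. The libraries of day 3 held between 9281999 and 12515804 reads assigned to genes, and those of day 7 between 23886190 and 31092899. The 5 markers of Müller glia, a cell type of the retina, were detected in every group. Lasered replicate 1 of day 3 stood apart. There 5 neutrophil markers summed to 1123, against 3.60 and 60.3 in lasered replicates 2 and 3 and 1.88 to 3.98 in controls of day 3, and the pigment epithelium markers summed to 12.9, against 68.3 and 209 in lasered replicates 2 and 3 and 117 to 186 in controls. Lens markers summed to 199.6 in lasered replicate 2 of day 3 and to 771 in lasered replicate 1 of day 7, against 1.61 to 6.00 in the other lasered libraries and 0.719 to 2.25 in controls. The part of these tissues in the results was not tested, and leaving out each library in turn is reported beside the calls. The median difference over all genes on day 3 was 0.16, and -0.01 after median-of-ratios scaling and -0.07 after quantile normalization, so small positive differences on day 3 lie within the shift that scaling makes.

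Stat3, the signal-carrying transcription factor, and Osmr, the oncostatin M receptor subunit, rose in lasered retinas. Over both days together Stat3 was higher by 1.53 (SE 0.20) and Osmr by 1.20 (SE 0.24), and Stat3 also rose on day 7 alone. Osmr reached the mean of 1 for that fit only through its lasered libraries, and most fits without 1 library lost its call. Socs3 and Lif lay above all controls in every lasered library on either day without passing the threshold over all genes. Il6st differed by smaller amounts, Lifr differed by 0.05 over both days, and Il6 and Osm were near the limit of detection outside 1 lasered library of day 3.

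On day 3, 8 members passed the filter and 0 were called by limma, where 0.143% of 16786 genes were called higher (0.00596% lower). At an unadjusted p under 0.05, 5 of the 8 were higher, against 20.7% of all genes tested, and limma voom on recovered reads also called 0. The groups did not overlap for 4 of the 8, against 27.7% of all genes tested. On day 7, 6 members passed the filter and 1, Stat3, was called, where 0.237% of 15592 genes were called higher and 0.00641% lower. Of these 6, 4 were higher at an unadjusted p under 0.05 (3.14% of all genes tested), and for 4 the groups did not overlap (6.78%). Over both days, 8 were tested and 2, Stat3 and Osmr, were called, where 1.9% of 17611 genes were called higher and 0.0114% lower. At an unadjusted p under 0.05, 6 of these 8 were higher, against 15.1% of all genes tested. For 4 of these 8, namely Lif, Osmr, Stat3 and Socs3, the lasered and control libraries did not overlap on either day, which held for 3.96% of all genes tested. The controls alone averaged under 1 for Il6, Clcf1 and Socs3 on day 3, for Lif on day 7, and for Lif, Osmr and Cntf over both days. These passed the filter through their lasered libraries, so the counts describe the members and do not stand as support.

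**Figure D1:**
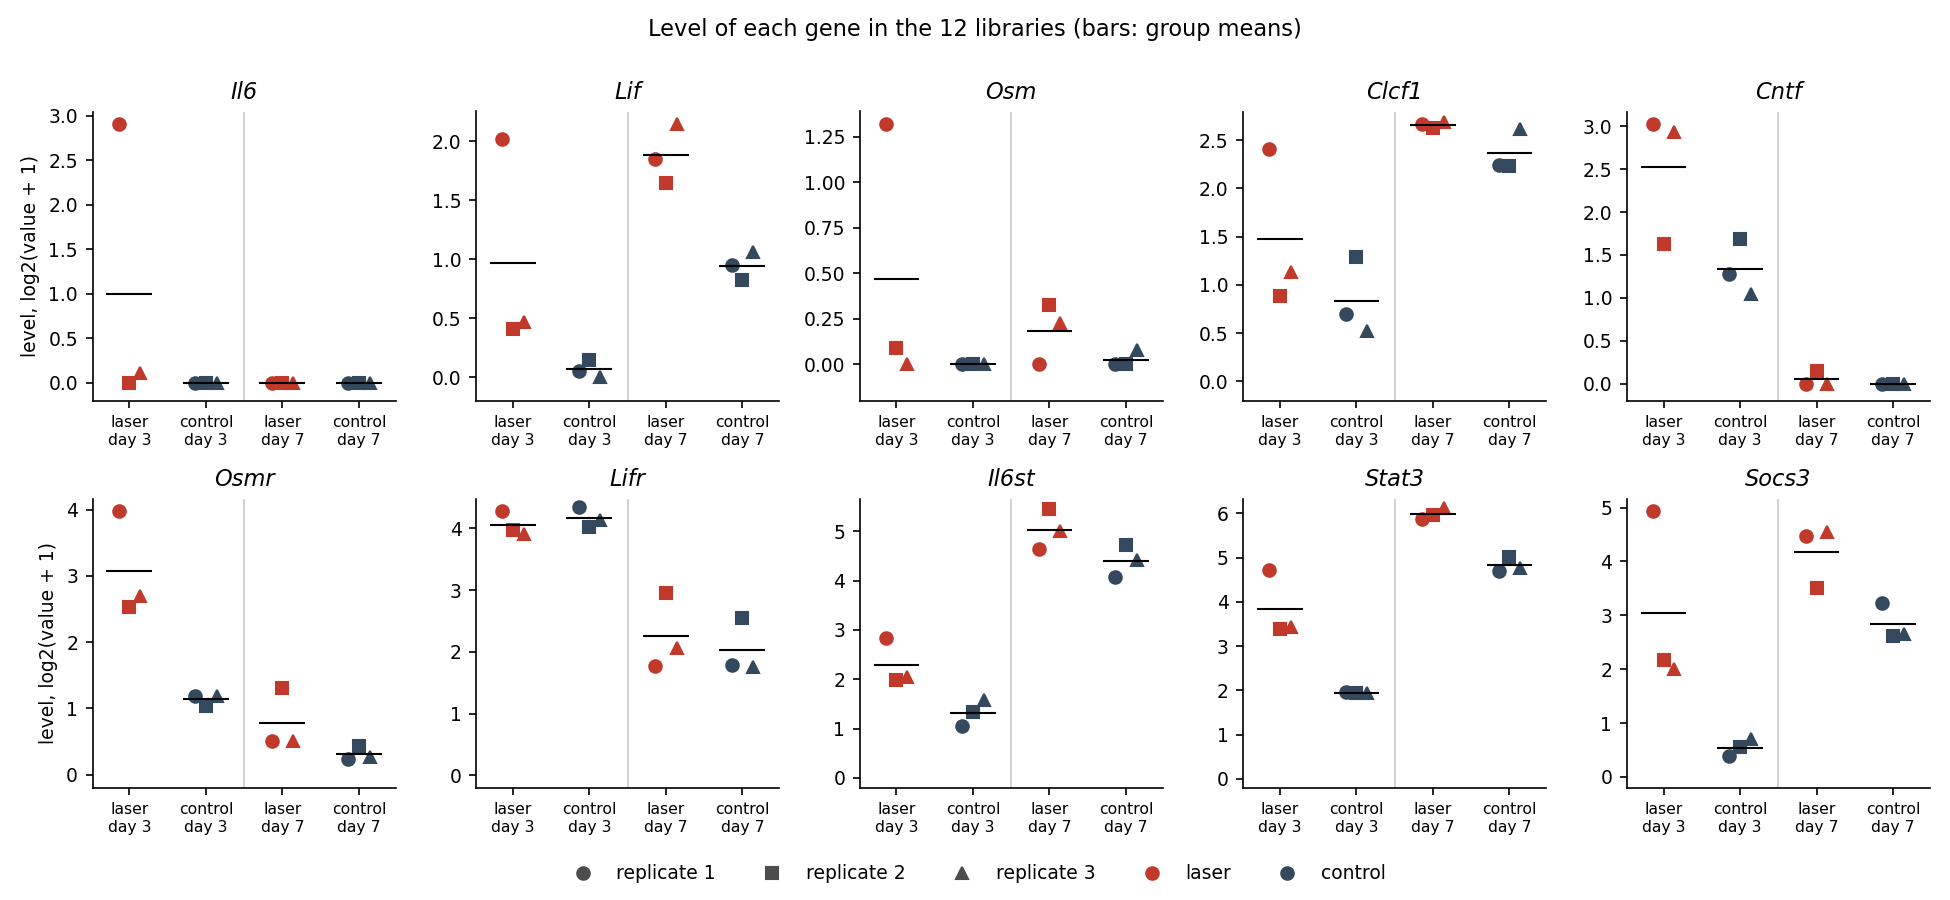
Level of each of the 10 genes in the 12 libraries, as log2(value + 1), with lasered retinas left of the controls of the same day, 1 symbol per library and a bar at each group mean. On day 3 the lasered replicate 1 (circle) is the highest lasered library for all 10 genes, and Stat3, Socs3, Osmr and Lif show no overlap between lasered and control libraries on either day. The 2 days come from tables normalised separately.

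Among the ligands, Lif, the cytokine that Müller glia make after photoreceptor damage, was the only one whose groups were apart on both days. On day 3 its level was 3.05, 0.326 and 0.381 in lasered replicates 1, 2 and 3, against 0.0354, 0.107 and 0 in control replicates 1, 2 and 3. These values rest on 66, 10 and 9 reads in lasered and 1, 3 and 0 reads in control libraries. Every lasered library was above every control, with lasered replicate 1 far above the other two. The gene fell below the filter on day 3 and has no fit there, and an exact 2-sided permutation test gave p = 0.1, the smallest that 3 against 3 libraries allow. On day 7 Lif was at 2.61, 2.12 and 3.42 in lasered retinas, against 0.935, 0.765 and 1.09 in controls. The groups were again apart and the lasered libraries lay close together, with a ratio of means of 2.92. The fitted difference on day 7 was 0.93 (SE 0.25, adjusted p = 0.550), and over both days it was 0.92 (SE 0.25, adjusted p = 0.0907), so Lif did not pass in either fit. Over both days it passed in 4 of 20 alternatives. These were voom on recovered reads (adjusted p = 0.0247), library weights (adjusted p = 0.00150) and leaving out lasered replicate 1 or 2 of day 3 (adjusted p = 0.0243 and 0.0487). In the other alternatives it did not pass, with adjusted p up to 0.215. Its controls alone averaged under 1 on day 7 and over both days. Lif thus passed these filters through its lasered libraries, and its fits are descriptions and no support. Permuting the labels within each day gave an exact 2-sided p = 0.005 over both days, the smallest this design allows. Lif lies on the plus strand of chromosome 11 from 4257557 to 4272514 (mm10, ENSMUSG00000034394).

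Il6, the founding cytokine of the family and a product of activated myeloid and stromal cells, was found in a single library at more than 1 read. On day 3 it read 6.47 (77 reads), 0 and 0.0764 (1 read) in lasered replicates 1, 2 and 3, and it was listed at 0 in the 3 controls. In the controls 3 reads would have corresponded to a level of 0.184 to 0.245. On day 7 it was listed at 0 in all lasered and all control libraries, where 3 reads would have corresponded to 0.120 to 0.156. The difference of 1.00 on day 3 (SE 0.74, adjusted p = 0.448) thus rests on lasered replicate 1. Il6 lies on chromosome 5 from 30013114 to 30019981 (ENSMUSG00000025746).

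Osm, a cytokine of activated macrophages and neutrophils, was highest in the same library. It had 17, 1 and 0 reads (levels 1.50, 0.0624 and 0) in lasered retinas of day 3, and 0 reads in each control. On day 7 it had 0, 5 and 4 reads in lasered and 0, 0 and 1 reads in control retinas, too few for any difference to be detectable at this depth. The exact permutation test over both days gave p = 0.08 for Osm and p = 0.4 for Il6. Beside these 2 genes stand the leukocyte markers of day 3. Each of the 5 neutrophil markers was detected in both groups of day 3, with the sums given above. The 3 monocyte markers summed to 52.8, 1.20 and 1.58 in lasered replicates 1, 2 and 3, against 0.260 to 0.581 in controls, where Ccr2 was at 0. On day 7 the neutrophil sum was 2.62 to 4.09 in lasered retinas with S100a9 at 0, and 0.838 to 1.48 in controls with Cxcr2 and Retnlg at 0. Csf3r made up most of these sums, with means of 2.75 in lasered and 0.984 in control retinas. Each other neutrophil marker averaged at most 0.199 in either group of day 7. The part of these cells in the Il6 and Osm values was not tested. In whole retina, more cells of a type and more RNA per cell cannot be told apart.

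Clcf1, which encodes a cytokine that acts through the CNTF receptor, was at 4.30, 0.842 and 1.19 in lasered retinas of day 3, against 0.627, 1.44 and 0.432 in controls. The groups overlapped, and the difference was 0.64 (SE 0.43, adjusted p = 0.405). On day 7 its level was 5.33, 5.19 and 5.45 in lasered and 3.74, 3.72 and 5.13 in control retinas. There each lasered library was above each control, by a margin smaller than the spread of the controls (difference 0.29, SE 0.22, adjusted p = 0.9998). Cntf, the ciliary neurotrophic factor, was at 7.12, 2.10 and 6.63 in lasered retinas of day 3 and at 1.42, 2.21 and 1.06 in controls. Replicates 1 and 3 were above all controls and replicate 2 was not (difference 1.19, SE 0.39, adjusted p = 0.141). On day 7 a total of 1 read of Cntf was found in lasered replicate 2 and 0 in the other libraries. Of the 1073 exon bases of Cntf, 78.9% are also exons of Zfp91 on the same strand of chromosome 19, so reads of the 2 genes cannot be told apart there and the counts of Cntf are uncertain. Zfp91 was at 3.49 to 4.82 in lasered and 2.95 to 3.99 in control retinas on day 3. For Clcf1 the overlap with another gene covers 8.17% of its exon bases.

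Osmr encodes the receptor subunit that pairs with gp130 for oncostatin M. On day 3 its level was 14.8, 4.77 and 5.46 in lasered retinas, against 1.27, 1.06 and 1.28 in controls, from 375 to 886 reads in lasered and 75 to 101 reads in control libraries. All lasered libraries lay above the controls, which agreed closely with one another. The ratio of means was 6.95 and the difference 1.93 (SE 0.37, adjusted p = 0.0883). Without lasered replicate 1 the difference was 1.47 and passed (adjusted p = 0.0125), as it did with library weights (adjusted p = 0.0383) and in a joint fit of the 12 libraries (adjusted p = 0.0127). On day 7 Osmr was at 0.423, 1.49 and 0.425 in lasered and at 0.177, 0.346 and 0.206 in control retinas. The groups did not overlap, lasered replicate 2 was the highest, and the ratio of means was 3.20, at levels under the filter of that day. Over both days Osmr rose by 1.20 (SE 0.24, adjusted p = 0.0319), and the exact permutation p was 0.005. Its controls alone averaged under 1 over both days. Osmr thus passed that filter through its lasered libraries, and its call is a description and no support. Leaving out single libraries ended this call in 8 of 12 cases, with adjusted p from 0.0526 to 0.0922, namely without any 1 of the controls of day 3 or of day 7, or without lasered replicate 2 or 3 of day 7. Without the filter it ended as well (adjusted p = 0.0750). Osmr lies on the minus strand of chromosome 15 from 6813577 to 6874969 (ENSMUSG00000022146).

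Lifr, the subunit for LIF, CNTF and CLCF1, gave small differences of either sign. On day 3 it was at 18.5, 14.6 and 14.0 in lasered retinas, against 19.4, 15.3 and 16.6 in controls. The groups overlapped, with a difference of -0.12 (SE 0.16, adjusted p = 0.702). A week after the laser it was at 2.43, 6.70 and 3.18 in lasered and 2.46, 4.87 and 2.38 in control retinas, a difference of 0.23 (SE 0.38, adjusted p = 0.9998). Over both days the difference was 0.05 (SE 0.21), and it turned to -0.08 after median-of-ratios scaling and -0.12 after quantile normalization, so no direction can be given for Lifr. Lifr lies on the plus strand of chromosome 15 from 7090614 to 7197489 (ENSMUSG00000054263), with Osmr nearby.

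Il6st, which encodes the shared subunit gp130, was at 6.18, 2.96 and 3.13 in lasered retinas of day 3, against 1.09, 1.51 and 1.97 in controls. The groups were apart, with a difference of 0.97 (SE 0.28, adjusted p = 0.116). The values of day 7 were 23.9, 42.6 and 31.3 in lasered and 16.0, 25.4 and 20.2 in control retinas. The groups overlapped there, while each lasered library exceeded the control of the same number by a similar ratio, 1.50, 1.68 and 1.55 for numbers 1, 2 and 3. With the replicate number as a block on day 7 the standard error was 0.11 in place of 0.26 for the same difference of 0.63, which still did not pass (adjusted p = 0.147 with the block and 0.9998 without). Over both days the difference was 0.80 (SE 0.20, adjusted p = 0.0681), and the exact permutation p was 0.01.

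Osmr and Lifr encode subunits that each pair with gp130, and their levels were set against each other within each library, which removes the scaling of that library. This ratio was chosen after the values were seen and has no test. Osmr over Lifr was 0.801, 0.326 and 0.390 in lasered retinas of day 3, against 0.0652, 0.0694 and 0.0767 in controls. On day 7 it was 0.174, 0.222 and 0.134 in lasered retinas, against 0.0720, 0.0710 and 0.0865 in controls. The ratio was thus higher in every lasered library than in any control library. The controls of the 2 days gave means of 0.0704 ± 0.00584 and 0.0765 ± 0.00867 (SD, n = 3 each), while the level of either gene in controls was lower on day 7. Il6st over Lifr was 0.202 to 0.334 in lasered and 0.0559 to 0.119 in control retinas on day 3. On day 7 the same ratio was 6.36 to 9.87 in lasered and 5.21 to 8.50 in control retinas, so it overlapped between the groups and differed widely between the days.

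**Figure D2:**
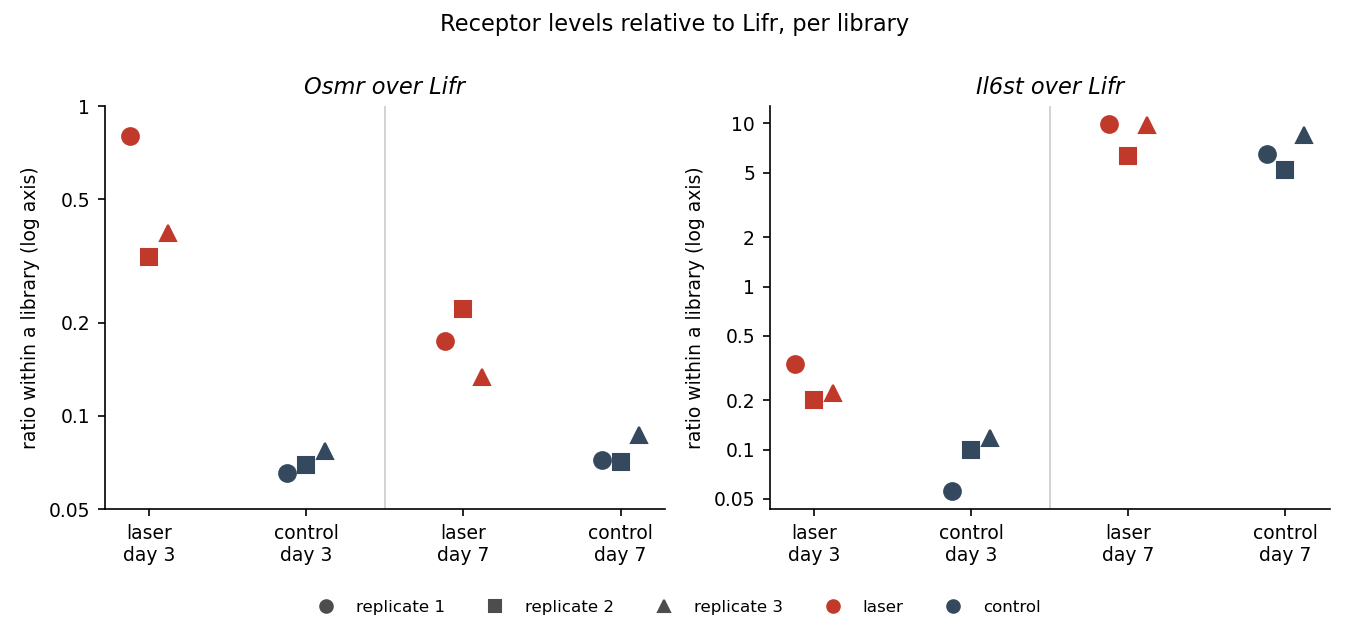
Ratio of Osmr to Lifr (left) and of Il6st to Lifr (right) within each library, on log axes, with lasered retinas left of the controls of the same day and 1 symbol per library. The ratio of Osmr to Lifr was 0.134 to 0.801 in the 6 lasered libraries and 0.0652 to 0.0865 in the 6 controls, while Il6st over Lifr sat far higher on day 7 than on day 3 in both groups.

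Stat3 encodes the transcription factor on which these receptors converge. On day 3 its level was 25.1, 9.52 and 9.71 in lasered retinas, against 2.88, 2.86 and 2.84 in controls. The controls were nearly identical and all lasered libraries lay above them, for a ratio of means of 5.17. The level of day 7 was 57.6, 61.7 and 68.8 in lasered and 25.1, 31.4 and 26.1 in control retinas. The lasered libraries lay close together on that day, from 4868 to 6761 reads, and the ratio of means was 2.28. Stat3 rose on day 7 by 1.16 (SE 0.15, adjusted p = 0.0444) and over both days by 1.53 (SE 0.20, adjusted p = 0.00393), and the exact permutation p over both days was 0.005. The difference on day 3 was 1.89 (SE 0.35) and did not pass (adjusted p = 0.0883). Without lasered replicate 1 it was 1.46 and passed (adjusted p = 0.00749). The call over both days held under all 20 alternatives tried, with differences from 1.31 to 1.68. The call of day 7 did not. It ended without lasered replicate 1 or 3 or any 1 of the controls (adjusted p from 0.113 to 0.348), without the filter (adjusted p = 0.0936), after median-of-ratios scaling (adjusted p = 0.0827) and in the joint fit (adjusted p = 0.345). Stat3 lies on the minus strand of chromosome 11 from 100885098 to 100939540 (ENSMUSG00000004040), and 0.756% of its exon bases overlap Stat5a on the other strand.

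Socs3 encodes the inhibitor that binds gp130 and the Janus kinases, and it is a direct target of STAT3. Its lasered libraries of day 3 spread widely. On day 3 its level was 29.7, 3.50 and 2.99 in lasered retinas, against 0.302, 0.463 and 0.624 in controls, from 409, 68 and 47 reads in lasered and 6, 9 and 9 reads in control libraries. Each lasered library was above each control, lasered replicate 1 by far, and the ratio of means was 26.1. The difference was 2.49 (SE 0.73, adjusted p = 0.121), and without lasered replicate 1 it was 1.54 and passed (adjusted p = 0.0181). The fit without that library called 294 of all genes, against 25 with all libraries of day 3. The controls of Socs3 alone averaged under 1 on day 3. Socs3 thus passed the filter of that day through its lasered libraries, and its day 3 fits are descriptions and no support. On day 7 Socs3 was at 21.1, 10.4 and 22.5 in lasered and at 8.36, 5.16 and 5.33 in control retinas. The groups were apart, with a difference of 1.34 (SE 0.33, adjusted p = 0.446). Over both days the difference was 1.92 (SE 0.44) at an adjusted p of 0.0501, just above the threshold of 0.05, and the exact permutation p was 0.005. Of 20 alternatives over both days it passed in 6. These were a pseudocount of 0.1 (2.56, adjusted p = 0.0236), voom (adjusted p = 0.0361), library weights (adjusted p = 1.25e-04) and leaving out any 1 of the lasered libraries of day 3 (adjusted p from 0.00415 to 0.0304). In the other alternatives it did not pass, with adjusted p up to 0.136. Socs3 lies on the minus strand of chromosome 11 from 117966079 to 117970047 (ENSMUSG00000053113).

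The promoters of Socs3, Stat3, Osmr and Lif are shown because these 4 members lay above the controls of the same day in all 6 lasered libraries. STAT dimers bind the motif TTCNNNGAA, where N is any base, which reads the same on both strands. In the RefSeq windows (build GRCm38.p6, from 250 bases before to 50 after the start of each gene) the motif was found in 8.3% of 32851 windows. Counted per gene, it was found in 9.55% of 27025 genes with a window. Windows were on hand for 8 of the 10 members, and 1 of them, Socs3, held the motif, which is near that share. The 250 bases before each RefSeq start are printed 5′ to 3′, with the motif in capitals. The windows of Socs3 and Osmr lie inside the span that the deposited tables give for those genes, and that of Lif reaches into it, so a farther upstream start is not covered.
Socs3, chr11:117969367-117969616, minus strand: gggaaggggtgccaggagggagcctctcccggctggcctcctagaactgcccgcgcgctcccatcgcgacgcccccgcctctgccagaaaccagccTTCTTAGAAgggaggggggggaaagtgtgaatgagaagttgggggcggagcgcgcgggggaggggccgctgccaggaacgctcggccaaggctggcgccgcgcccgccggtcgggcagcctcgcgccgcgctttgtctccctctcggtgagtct
Stat3, chr11:100939541-100939790, minus strand: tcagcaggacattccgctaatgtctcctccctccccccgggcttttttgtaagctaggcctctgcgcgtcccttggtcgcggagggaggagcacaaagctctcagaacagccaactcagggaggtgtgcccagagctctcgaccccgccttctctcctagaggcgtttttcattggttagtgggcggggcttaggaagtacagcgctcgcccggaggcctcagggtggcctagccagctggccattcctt
Osmr, chr15:6874314-6874563, minus strand: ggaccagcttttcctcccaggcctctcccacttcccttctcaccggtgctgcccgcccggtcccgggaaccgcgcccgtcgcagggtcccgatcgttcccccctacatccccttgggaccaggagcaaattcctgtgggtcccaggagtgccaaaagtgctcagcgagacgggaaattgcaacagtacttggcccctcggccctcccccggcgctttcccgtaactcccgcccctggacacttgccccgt
Lif, chr11:4257318-4257567, plus strand: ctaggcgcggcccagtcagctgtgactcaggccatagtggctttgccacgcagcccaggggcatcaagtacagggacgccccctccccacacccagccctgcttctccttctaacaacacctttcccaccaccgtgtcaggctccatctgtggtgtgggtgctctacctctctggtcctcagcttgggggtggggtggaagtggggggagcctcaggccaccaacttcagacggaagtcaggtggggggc
The site of Socs3 begins 154 bases before the start, and the windows of Stat3, Osmr and Lif hold no run of these letters.

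**Figure D3:**
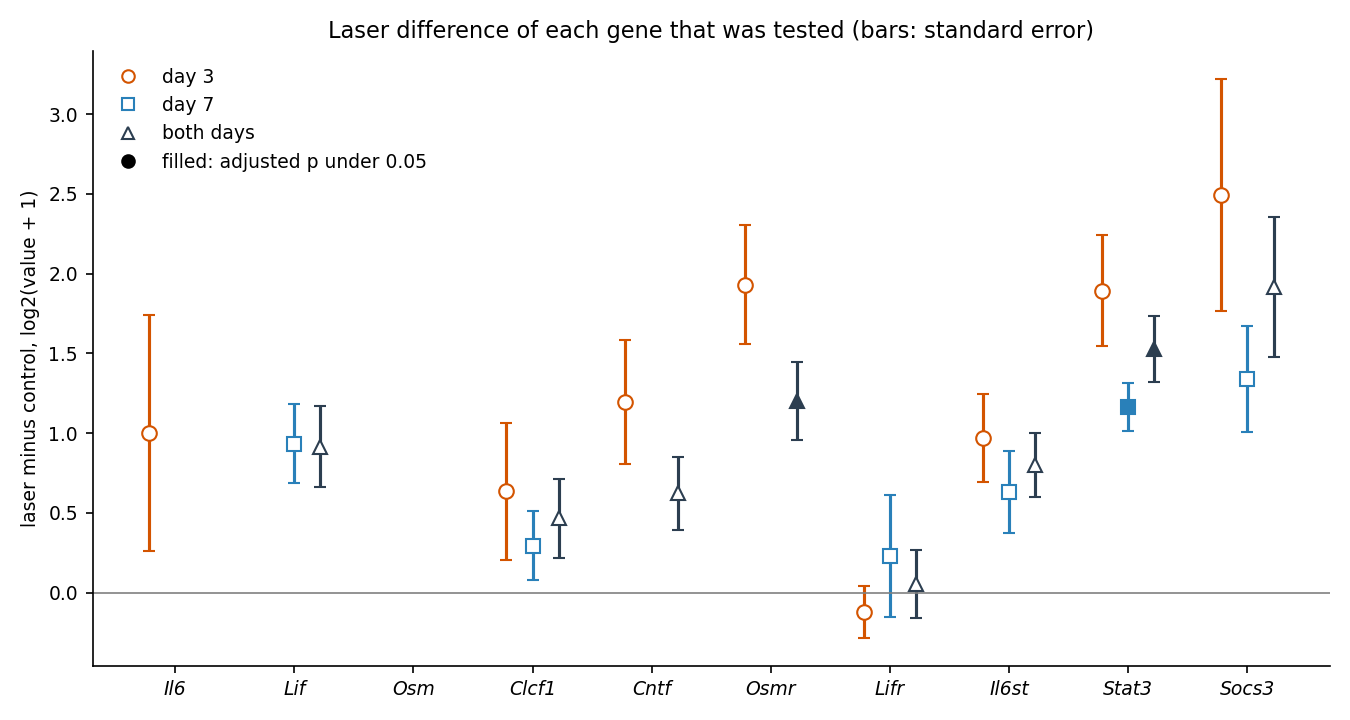
Laser minus control difference on the log2(value + 1) scale, with its standard error, for each gene and fit in which the gene passed the filter (day 3, day 7 and both days). Filled symbols mark an adjusted p under 0.05, which Stat3 reached on day 7 (1.16) and over both days (1.53) and Osmr over both days (1.20). Osm passed no filter and has no point.

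Whether the laser difference changed between the days was tested as an interaction. Of 8 members tested 0 were called by limma, where 0 of 17611 genes were called in either direction, and voom also called 0 members. At an unadjusted p under 0.05, 2 members had a smaller difference on day 7 than on day 3, against 8.43% of all genes. They were Osmr (-1.46, SE 0.49, adjusted p = 0.403) and Cntf (-1.14, SE 0.45, adjusted p = 0.474). For Osmr it was -1.20 with voom (adjusted p = 0.734), and it passed with library weights (-1.35, adjusted p = 0.0145). Cntf had a total of 1 read on day 7, and Osmr lay under the filter there. At such levels log2(value + 1) leaves little room for a difference on day 7. Both also passed the filter over both days through their lasered libraries. The count of 2 and these values are thus descriptions and no support. For Lif the sign of the change between days was not settled, at 0.04 in the fit, -1.18 with a pseudocount of 0.1 and -2.24 with voom.

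Levels in the controls themselves differed between the tables of the days, which were normalised separately. The mean control level of day 7 was 9.63 times that of day 3 for Stat3, 13.6 times for Socs3, 13.5 times for Il6st and 5.03 times for Clcf1. For Lifr it was 0.189 times and for Osmr 0.202 times that of day 3. Over 17611 genes the same gap between controls went with the GC content of the longest transcript (Spearman's correlation 0.628 across genes, which are not independent replicates). The GC content was 44.4% for Lifr and 46.0% for Osmr, against 52.5% for Stat3 and 58.7% for Socs3, while Il6st with 47.4% was higher on day 7. Day and table cannot be told apart, so no statement on time in control retinas is made. The laser minus control differences also went with GC content over the same 17611 genes, with opposite sign on the 2 days. Spearman's correlation was 0.177 on day 3 and -0.268 on day 7. The part of GC content in the laser differences and in their change between days was not tested.

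The rest of the pathway was described with 57 further genes in 5 lists. On day 3, 1 of them was called (Gfap, 0.143% of all genes being called higher), on day 7 there were 3 (0.237% of all genes), and over both days 9 (1.9% of all genes). All of these were higher in lasered retinas. The call of day 3 was lost without lasered replicate 3 or any 1 of the controls, and the 3 calls of day 7 were lost without any 1 library other than lasered replicate 2. Over both days leaving out 1 library gave 3 to 12 calls, with 3 or 4 calls without any 1 control of either day or without lasered replicate 1 or 3 of day 7. Of the other ligands 3 of 7 passed the filter and 0 were called by limma in any of the 3 fits, with 2 at an unadjusted p under 0.05 on day 3 (20.7% of all genes tested), 0 on day 7 (3.14%) and 0 over both days (15.1%). Il27 differed by 1.54 on day 3 (SE 0.59, adjusted p = 0.183). Of the other receptors 2 of 5 passed the filter and 0 were called by limma. At an unadjusted p under 0.05 there were 2 on day 3, 0 on day 7 and 2 over both days, against the same shares of all genes. Cntfr, the binding subunit for CNTF, differed by 0.81 on day 3 (SE 0.21, adjusted p = 0.106), and Il11ra1 by 0.45 (SE 0.15, adjusted p = 0.144). Il6ra, the binding subunit for IL-6, stayed under the filter, at 0.0695 to 0.372 in lasered and 0.0344 to 0.0438 in control retinas on day 3 and at 0.259 to 0.497 in lasered and 0.131 to 0.236 in control retinas on day 7.

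Among kinases and other STATs, Jak3, the kinase of common gamma chain receptors in lymphoid and myeloid cells, rose over both days (0.92, SE 0.19, adjusted p = 0.0318, and 0.0636 with the replicate block). Jak3 was 1 of 9 tested, where 1.9% of all genes tested were called higher. It was at 0.165 to 0.907 in lasered and 0 to 0.0385 in control retinas on day 3, and at 8.97, 4.81 and 9.23 in lasered and 2.98, 2.42 and 1.72 in control retinas on day 7. The median difference of that list over both days was 0.35, beside 0.11 for all genes tested. Stat2, which carries interferon signals and was picked after its values were seen, was at 48.6, 8.03 and 7.80 in lasered retinas of day 3, against 3.00, 2.83 and 3.10 in controls. It did not pass over both days (1.24, SE 0.36, adjusted p = 0.102). In the list of feedback genes and phosphatases, 1 of 11 tested was called over both days, against 1.9% of all genes tested. It was Ptpn6, the phosphatase SHP-1 of blood cells, with a rise of 1.33 (SE 0.30, adjusted p = 0.0494, and 0.0805 with the replicate block), at 12.7, 2.07 and 2.89 in lasered and 0.727, 1.06 and 0.716 in control retinas on day 3. Microglia and macrophage markers were also higher as a sum. Their 6 genes, all detected in every group, summed to 102 to 205 in lasered and 16.7 to 24.2 in control retinas on day 3, and to 266 to 351 in lasered and 78.0 to 92.7 in control retinas on day 7. The part of these cells in the differences of Ptpn6, Jak3 and Stat3 was not tested.

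Of 23 genes known as STAT3 targets in other settings, 21 passed the filter on day 3 and over both days and 19 on day 7. Over both days 7 rose, on day 7 there were 3, and on day 3 there was 1. Of all genes tested, 1.9%, 0.237% and 0.143% were called higher in these fits. The list medians were 0.75, 0.48 and 1.27, beside 0.11, 0.06 and 0.16 for all genes tested. The controls alone averaged under 1, so that only the lasered libraries carried the gene past the filter, for 7 of the 21 tested over both days, 4 of the 19 on day 7 and 11 of the 21 on day 3. That share was 3.29%, 3.14% and 6.40% over all genes tested, and the counts and medians of the list are descriptions and no support. Among the called targets, those carried past the filter in this way were Bcl3, Timp1, Icam1 and Steap4 over both days and Timp1 on day 7. Their calls are likewise descriptions. Bcl3, a nuclear IκB protein, was at 21.3, 4.37 and 4.57 in lasered retinas of day 3, against 0, 0.115 and 0.0798 in controls. Its level on day 7 was 16.2, 7.61 and 19.5 in lasered and 0.984, 1.72 and 0.689 in control retinas, and it rose on day 7 (2.79, SE 0.38, adjusted p = 0.0475) and over both days (2.92, SE 0.35, adjusted p = 0.00185). The groups were far apart on either day. Timp1, an inhibitor of matrix proteases, was at 1076, 15.3 and 16.9 in lasered retinas of day 3, against 0.855, 1.19 and 0.232 in controls, and it rose on day 7 (2.75, SE 0.29, adjusted p = 0.0202) and over both days (4.03, SE 0.84, adjusted p = 0.0347). Gfap, the filament protein of reactive glia, was at 412, 93.8 and 104 in lasered retinas of day 3, against 5.32, 8.68 and 5.43 in controls. On day 7 Gfap read 164, 119.7 and 136 in lasered retinas, against 31.5, 34.3 and 15.2 in controls. It rose on day 3 (4.45, SE 0.54, adjusted p = 0.0450), on day 7 (2.40, SE 0.30, adjusted p = 0.0419) and over both days (3.42, SE 0.34, adjusted p = 5.79e-04). The 5 Müller glia markers did not move as one. On day 3 Glul averaged 197 in lasered and 315 in control retinas, and Rlbp1 432 in lasered and 529 in control retinas, while Apoe, which macrophages also express, averaged 314 in lasered and 141 in control retinas. Slc1a3 and Kcnj10 averaged 90.2 and 6.19 in lasered and 68.9 and 3.57 in control retinas. Rlbp1 overlapped, at 268 to 527 in lasered and 470 to 623 in control retinas of day 3, while Glul was at 67.2 to 285 against 310 to 318. The sum of the 5 on day 3 was 770, 1241 and 1105 in lasered replicates 1, 2 and 3, against 982 to 1178 in controls. On day 7 the sum of the 5 was 8187 to 9855 in lasered and 5703 to 6739 in control retinas, with Apoe at 3789 in lasered and 1795 in control retinas. The part of these cells in the Gfap values was not tested.

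The other 4 that rose over both days were A2m, a protease inhibitor (2.02, SE 0.25, adjusted p = 0.00236), Cebpd, a transcription factor of the acute phase (1.84, SE 0.36, adjusted p = 0.0268), the adhesion molecule Icam1 (1.30, SE 0.23, adjusted p = 0.0159), and Steap4, a metalloreductase (2.54, SE 0.58, adjusted p = 0.0486). Lcn2, the iron-siderophore binder lipocalin 2, read 3906, 44.5 and 182 in lasered retinas of day 3, against 9.19, 8.56 and 7.67 in controls, and did not pass over both days (3.33, SE 0.82, adjusted p = 0.0653). The other 14 tested targets did not pass over both days, Lcn2 among them. The list was drawn up with results for Gfap and A2m in these libraries known, so it is not independent evidence of their direction. With the replicate block the number of the 57 genes called was 5 over both days, 3 on day 7 and 0 on day 3. The block ended the calls over both days of Cebpd (adjusted p = 0.0693), Steap4 (adjusted p = 0.0729), Ptpn6 (adjusted p = 0.0805) and Jak3 (adjusted p = 0.0636). It also ended the call of Bcl3 on day 7 (adjusted p = 0.0676) and that of Gfap on day 3 (adjusted p = 0.150).

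**Figure D4:**
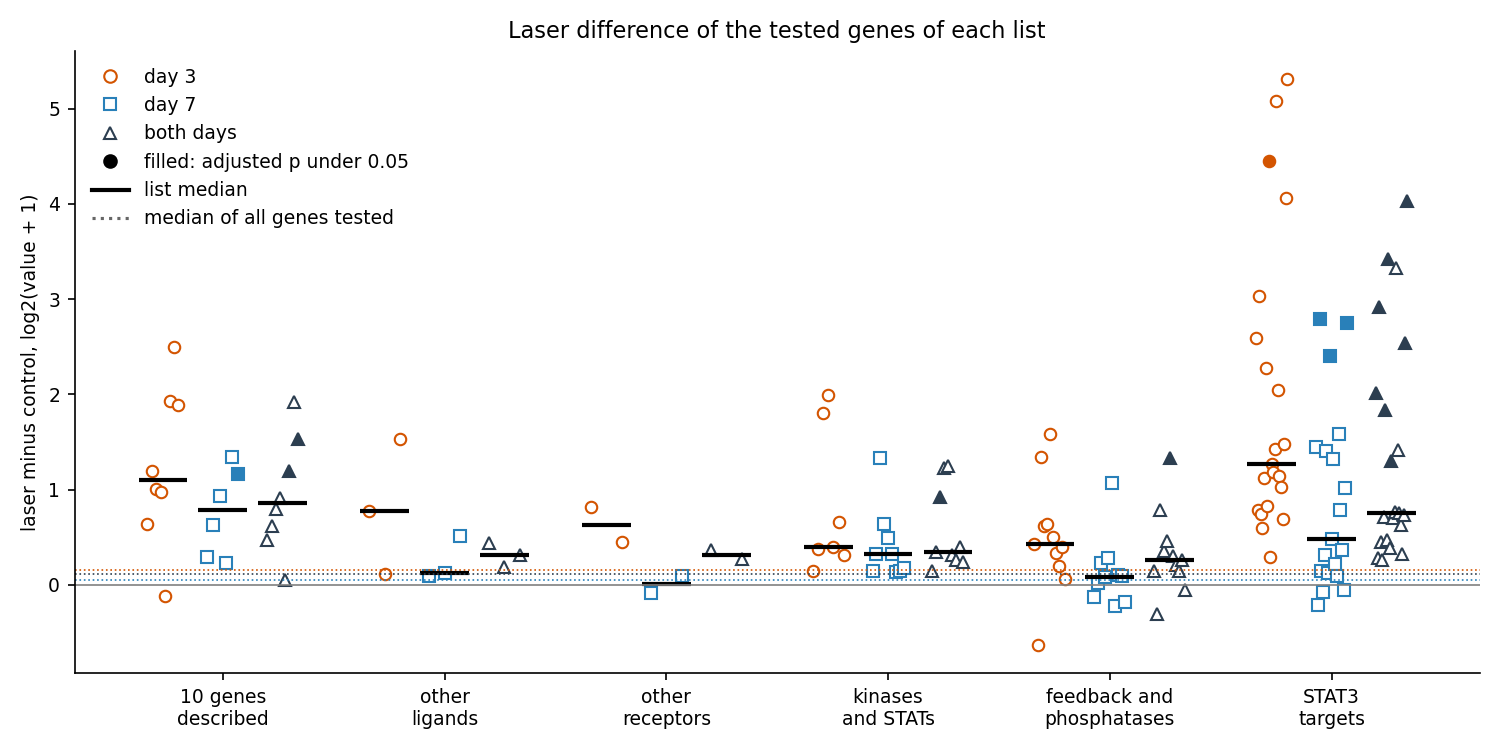
Laser minus control difference on the log2(value + 1) scale for every tested gene of the 10 described and of the 5 pathway lists, for day 3 (circles), day 7 (squares) and both days (triangles), with filled symbols for an adjusted p under 0.05. Black bars are list medians and dotted lines the medians of all genes tested. The 21 tested STAT3 targets had a median of 0.75 over both days and held 7 of the 9 calls.

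The STAT motif was present in the windows of 4 of the 19 STAT3 targets with a RefSeq window, and in 9.55% of all 27025 genes with one. The 3 of them that rose are shown with 10 bases on either side and the motif in capitals, since their differences are given above. The fourth, Bcl6, did not pass in any fit.
Gfap, chr11:102897184-102897212, minus strand: atgggggtgcTTCCAGGAAgtcaggggca
Steap4, chr5:7960346-7960374, plus strand: ggttgaactcTTCCCGGAAactttgcttc
Icam1, chr9:21015888-21015916, plus strand: ggcgcgaggtTTCCCGGAAagtggccccg
The motif began 2 bases before the start of Gfap, 116 before that of Steap4 and 42 before that of Icam1. A match of letters is a description and not evidence of binding in these retinas.

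The genes whose pattern was most like that of 3 members were found by Pearson's correlation over the 12 libraries, after each gene was centred on the mean of its day, among about 5880 named genes with a mean of at least 5 on both days. These values are descriptions, since the libraries share the split into lasered and control eyes and lasered replicate 1 of day 3 lies far out. For Socs3 the nearest were Cyba (0.989), Carhsp1 (0.978), S100a13 (0.976), Aldh3b1 (0.975) and Tgm2 (0.972). For Stat3 they were Bst2 (0.990), Cryzl2 (0.989), Laptm5 (0.986), Fcer1g (0.986) and Gna14 (0.985). For Osmr they were Igtp (0.990), Ifit3b (0.986), Usp18 (0.983), Ifit3 (0.980) and E2f6 (0.977), of which Ifit3 and Ifit3b are near copies whose reads may have been split. The 3 members shared no gene among these neighbours.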

How the data were processed

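Libraries were made from poly(A) RNA of mouse retina with a directional kit, 12 in all. The submitters' processing notes list STAR 2.7.0, edgeR 3.28.0 and mm10, and do not say which step each served; the counting step and its use of strand are facts not given in the sources used here. Each deposited signal is a value per gene and library, with a table per day, and the authors name it TPM, although columns sum to between 953049 and 1045986. Multiplied by the union exon length of GENCODE M21, values became whole multiples of a library's own step after removal of a factor with 6 values that cycles with the table row (0.955 to 1.05). This gave the reads per gene and the depth, and of values under 20 reads 98.9% to 99.2% came out whole within 0.05. Limits from 3 reads cover counting error only.

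The 2 tables were fitted separately with limma 3.58.1 in R 4.3.3 (trended prior variance, 2-sided) on log2(value + 1). Genes entered where their mean was 1 or more, and the Benjamini-Hochberg adjustment covered every gene tested. Both days together and their difference came from 1 fit of the 12 libraries with a mean per group. Exact permutation tests used the same scale. The alternatives were another pseudocount, no filter, other scalings, library weights, the replicate block, left-out libraries and a joint fit, and, chosen after seeing the data, the row factor undone and voom on the reads recovered from the deposited signal. The fits were also run on counts simulated around the control means, with a small even spread and no outlying library. That run cannot show how the fits behave with a library such as lasered replicate 1 of day 3. Promoters are from RefSeq, build GRCm38.p6. Tables and plots were made in Python 3.11.15 with pandas 2.3.3, SciPy 1.17.1 and matplotlib 3.10.9.

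The members and lists were chosen with earlier results of these data known. Named are all members, up to 8 called genes of each list or otherwise the 2 with the smallest p, and the 5 nearest genes of 3 members; Il6ra, Stat2, Lcn2 and Bcl6 were added after their values were seen. Some genes of these lists are not reported here. In the design text the left eye serves as control for the right. The deviations of same-numbered libraries from their group means correlated at 0.485, 0.559 and 0.128 on day 7, each over 0.1, and those of other pairs at -0.533 to 0.205. Number 3 thus did not stand out from unmatched pairs. On day 3 the same-numbered correlations were 0.0413, 0.0162 and 0.0766. The tests reported carry no block, and the blocked values are given where they change a call.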

Additional observations from a re-analysis of the deposited data

How the results depend on the processing

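Among the recomputed member values, 472 kept their direction and side of the threshold, 23 newly passed, 17 no longer passed and 16 changed sign; the causes were not tested. The sign changed for Lifr over both days with median-of-ratios scaling (-0.082) and quantile normalization (-0.12), for Lif between days with a pseudocount of 0.1 (-1.18) and voom (-2.24), and for Socs3 between days with library weights (0.023). Leaving out 1 library gave -0.11 to 0.49 for Lifr on day 7, -0.12 to 0.18 for Lifr over both days, -0.24 to 0.56 for Lif between days, and -0.64 to 0.12 for Clcf1 between days.

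The number of all genes called on day 3 was 25, against 0 with no filter, 13 with median-of-ratios scaling, 12 with quantile normalization, 369 with library weights, 0 with the replicate block, 13 with voom, 1139 in the joint fit and 0 to 294 without 1 library, the 294 without lasered replicate 1. On day 7 it was 38, against 13 with no filter, 114 with library weights, 18 with voom, 25 in the joint fit and 0 to 41 without 1 library. Over both days it was 336, against 195 with median-of-ratios scaling, 197 with quantile normalization, 4026 with library weights and 120 to 591 without 1 library. Between days it was 0, against 2 with a pseudocount of 0.1, 28 with no filter, 1119 with library weights and 0 to 3 without 1 library.

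Among the 57 pathway genes the count on day 3 was 1, against 0 with no filter, either other scaling, the replicate block or the row factor undone, 4 with library weights, 2 with voom, 12 in the joint fit and 0 to 8 without 1 library. On day 7 it was 3, against 0 with no filter or in the joint fit, 7 with library weights, 1 with voom and 0 to 4 without 1 library. Over both days it was 9, against 4 with no filter, 5 with quantile normalization, 30 with library weights, 5 with the replicate block and 3 to 12 without 1 library. The replicate block changed no call of a member. Low reads limit Il6, Osm and Cntf, and Lif on day 3.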
